A study of Homo sapiens with 32 samples.

Results

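NRF2, the transcription factor encoded by NFE2L2, its inhibitor KEAP1 and 8 of the antioxidant genes that NRF2 drives were followed in human cells in which DNA topoisomerase 1 or the checkpoint kinase ATM had been targeted. The 10 genes (NFE2L2, KEAP1, HMOX1, NQO1, GCLC, GCLM, TXNRD1, SRXN1, ME1 and OSGIN1) were taken by their Ensembl identifiers from a count table of 60107 genes, and each had 1 row. The samples were 32 sequencing libraries, 4 for each of 8 groups, from HEK293T cells, a line of embryonic kidney origin, and U2OS cells, an osteosarcoma line. HEK293T and U2OS cells received camptothecin (CPT), which traps topoisomerase 1 on DNA, or the vehicle DMSO for 24 h, followed by 48 h of recovery, and the study used a higher CPT dose in U2OS than in HEK293T. HEK293T cells were also treated with an inhibitor of ATM or DMSO on the same schedule, and untreated U2OS cells that were wild type (WT) or carried a knockout of ATM (ATM KO) were grown for 72 h. The U2OS knockout was made by genome editing and expanded from picked clones, so that a difference between clones and the loss of ATM cannot be told apart, and no group carries a treatment on top of the knockout.

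NRF2 is made continuously and destroyed almost as fast, because KEAP1 hands it to a ubiquitin ligase built on CUL3 and RBX1. Oxidants and electrophiles modify cysteines of KEAP1, NRF2 then escapes, pairs with a small MAF protein and binds antioxidant response elements in front of its target genes. Since the control acts on the protein, the level of the NFE2L2 transcript by itself says little about NRF2 activity, and the targets are usually read instead. HMOX1 encodes heme oxygenase 1, which breaks heme down and is also held in check by the repressor BACH1. NQO1 is a quinone reductase, GCLC and GCLM are the catalytic and modifier subunits of glutamate cysteine ligase, which starts glutathione synthesis, TXNRD1 and SRXN1 belong to the thioredoxin and peroxiredoxin system, ME1 supplies NADPH, and OSGIN1 is a growth inhibitor induced by oxidative stress.

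The core of the antioxidant response element, TGACNNNGC, was looked for on both strands in the RefSeq promoters (GRCh38.p14, the 250 bases before each start site). Such elements are what NRF2 binds in front of its target genes. Promoters were matched for 9 members in 12 windows, and HMOX1 was not matched. Of these 9 genes, 4 held the core, against 13.2% of the 27305 genes with a promoter. The matches of these 4 members are shown with the core in capitals, read 5′ to 3′ along the strand of the gene, so that a core on the opposite strand appears as GCNNNGTCA.
KEAP1, distal match: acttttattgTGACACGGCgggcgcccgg
KEAP1, proximal match: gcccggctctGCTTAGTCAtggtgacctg
GCLM: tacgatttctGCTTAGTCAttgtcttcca
TXNRD1, upstream promoter: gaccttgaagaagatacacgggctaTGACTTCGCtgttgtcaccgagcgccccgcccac
TXNRD1, downstream promoter: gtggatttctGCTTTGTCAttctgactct
ME1: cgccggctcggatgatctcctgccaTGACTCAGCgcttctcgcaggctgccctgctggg
The 2 KEAP1 matches lay at chr19:10502807-10502835 and chr19:10502784-10502812, in a stretch that GENCODE 29 annotates as KEAP1 exon, with the cores 54 to 46 and 31 to 23 bases before the start. KEAP1 lies on the minus strand, as does the distal core, and the proximal core is on the plus strand. The GCLM match, at chr1:93909446-93909474, also overlapped an exon of its gene, with the core 34 to 26 bases before the start. GCLM lies on the minus strand and this core on the plus strand. The upstream TXNRD1 match, at chr12:104215655-104215713 on the plus strand, lay outside annotated genes with the core 99 to 91 bases before the start, and the downstream match, at chr12:104286920-104286948, overlapped a TXNRD1 exon. The ME1 match lay outside annotated genes on the minus strand of chr6:83431155-83431213, with the core 137 to 129 bases before the start. GCLM and the proximal KEAP1 match carried the same 9 letters, GCTTAGTCA. The letters were absent from the windows of NFE2L2, NQO1, GCLC, SRXN1 and OSGIN1, which says nothing of elements farther away.

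The counts come from QuantSeq, a method that reads the 3′ end of each messenger RNA, and the 32 libraries held 1232674 to 6362433 counts on genes. Levels are given as CPM, counts scaled to a library total of 1000000, for which 3 counts correspond to 2.43 CPM in the shallowest and 0.472 CPM in the deepest library. The profiles of libraries 1 to 17 went against their deposited labels. Of 7 U2OS markers, 6 (all but COL1A2, which stayed at or below 0.62 CPM everywhere) were higher in every one of libraries 1 to 8 and 26 to 33 than in any of libraries 10 to 25, with summed levels of 2036 to 4993 CPM against 54.2 to 197 CPM. Most of the higher sums was CLU, at 2404 to 4107 CPM in libraries 1 to 8 and 1673 to 3494 CPM in libraries 26 to 33. The study had itself reported the markers CLU and CRYAB as higher in U2OS from these data. Of 5 HEK293T markers, DLK1 was at or near 0 throughout, and NEFL and PAX2 did not separate these libraries. NEFL was higher in libraries 26 to 33, at 129 to 180 CPM, than in libraries 10 to 17 (65.6 to 121 CPM) and 18 to 25 (57.4 to 83.5 CPM). NEFM and LIN28B separated the same libraries as the U2OS markers, in the opposite direction. Yet libraries 2 to 8 are labelled HEK293T and libraries 10 to 16 are labelled U2OS, whereas the markers of libraries 1 and 17 match their labels. The control levels in a table of the study were compared with the mean of every choice of 4 of these 16 libraries, 1820 in all, after a constant offset had been removed, a form chosen after seeing the data. Nearest were 11, 13, 15 and 17 for CPT in HEK293T and 1, 3, 5 and 7 for ATM KO in U2OS. With the offset kept, these choices ranked 1147 and 293 of 1820, and the labelled DMSO controls of the ATM inhibitor, nearest of 70 choices with it removed, ranked 20. Libraries 10, 12, 14 and 16 were read as CPT and 11, 13, 15 and 17 as DMSO in HEK293T, and libraries 2, 4, 6 and 8 as ATM KO and 1, 3, 5 and 7 as WT in U2OS. Every direction given for these 16 libraries rests on that reading by number. Libraries 18 to 21 carry the label ATM KO in HEK293T and were read as the ATM inhibitor of the study.

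CDKN1A and MDM2, a cell cycle inhibitor and a ubiquitin ligase that p53 induces after DNA damage, were 2.24 and 2 higher on the log2 scale with CPT in U2OS and 2.17 and 1.14 higher in the libraries read as CPT in HEK293T (largest adjusted p = 3.22e-07). Neither passed the test with the ATM inhibitor or in the libraries read as ATM KO. The ATM transcript itself differed by -0.31 in the libraries read as ATM KO (adjusted p = 0.255), and a 3′ end read need not see an edit elsewhere in the gene. As these are bulk samples, fewer cells of a kind and less RNA per cell cannot be told apart.

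**Figure D1:**
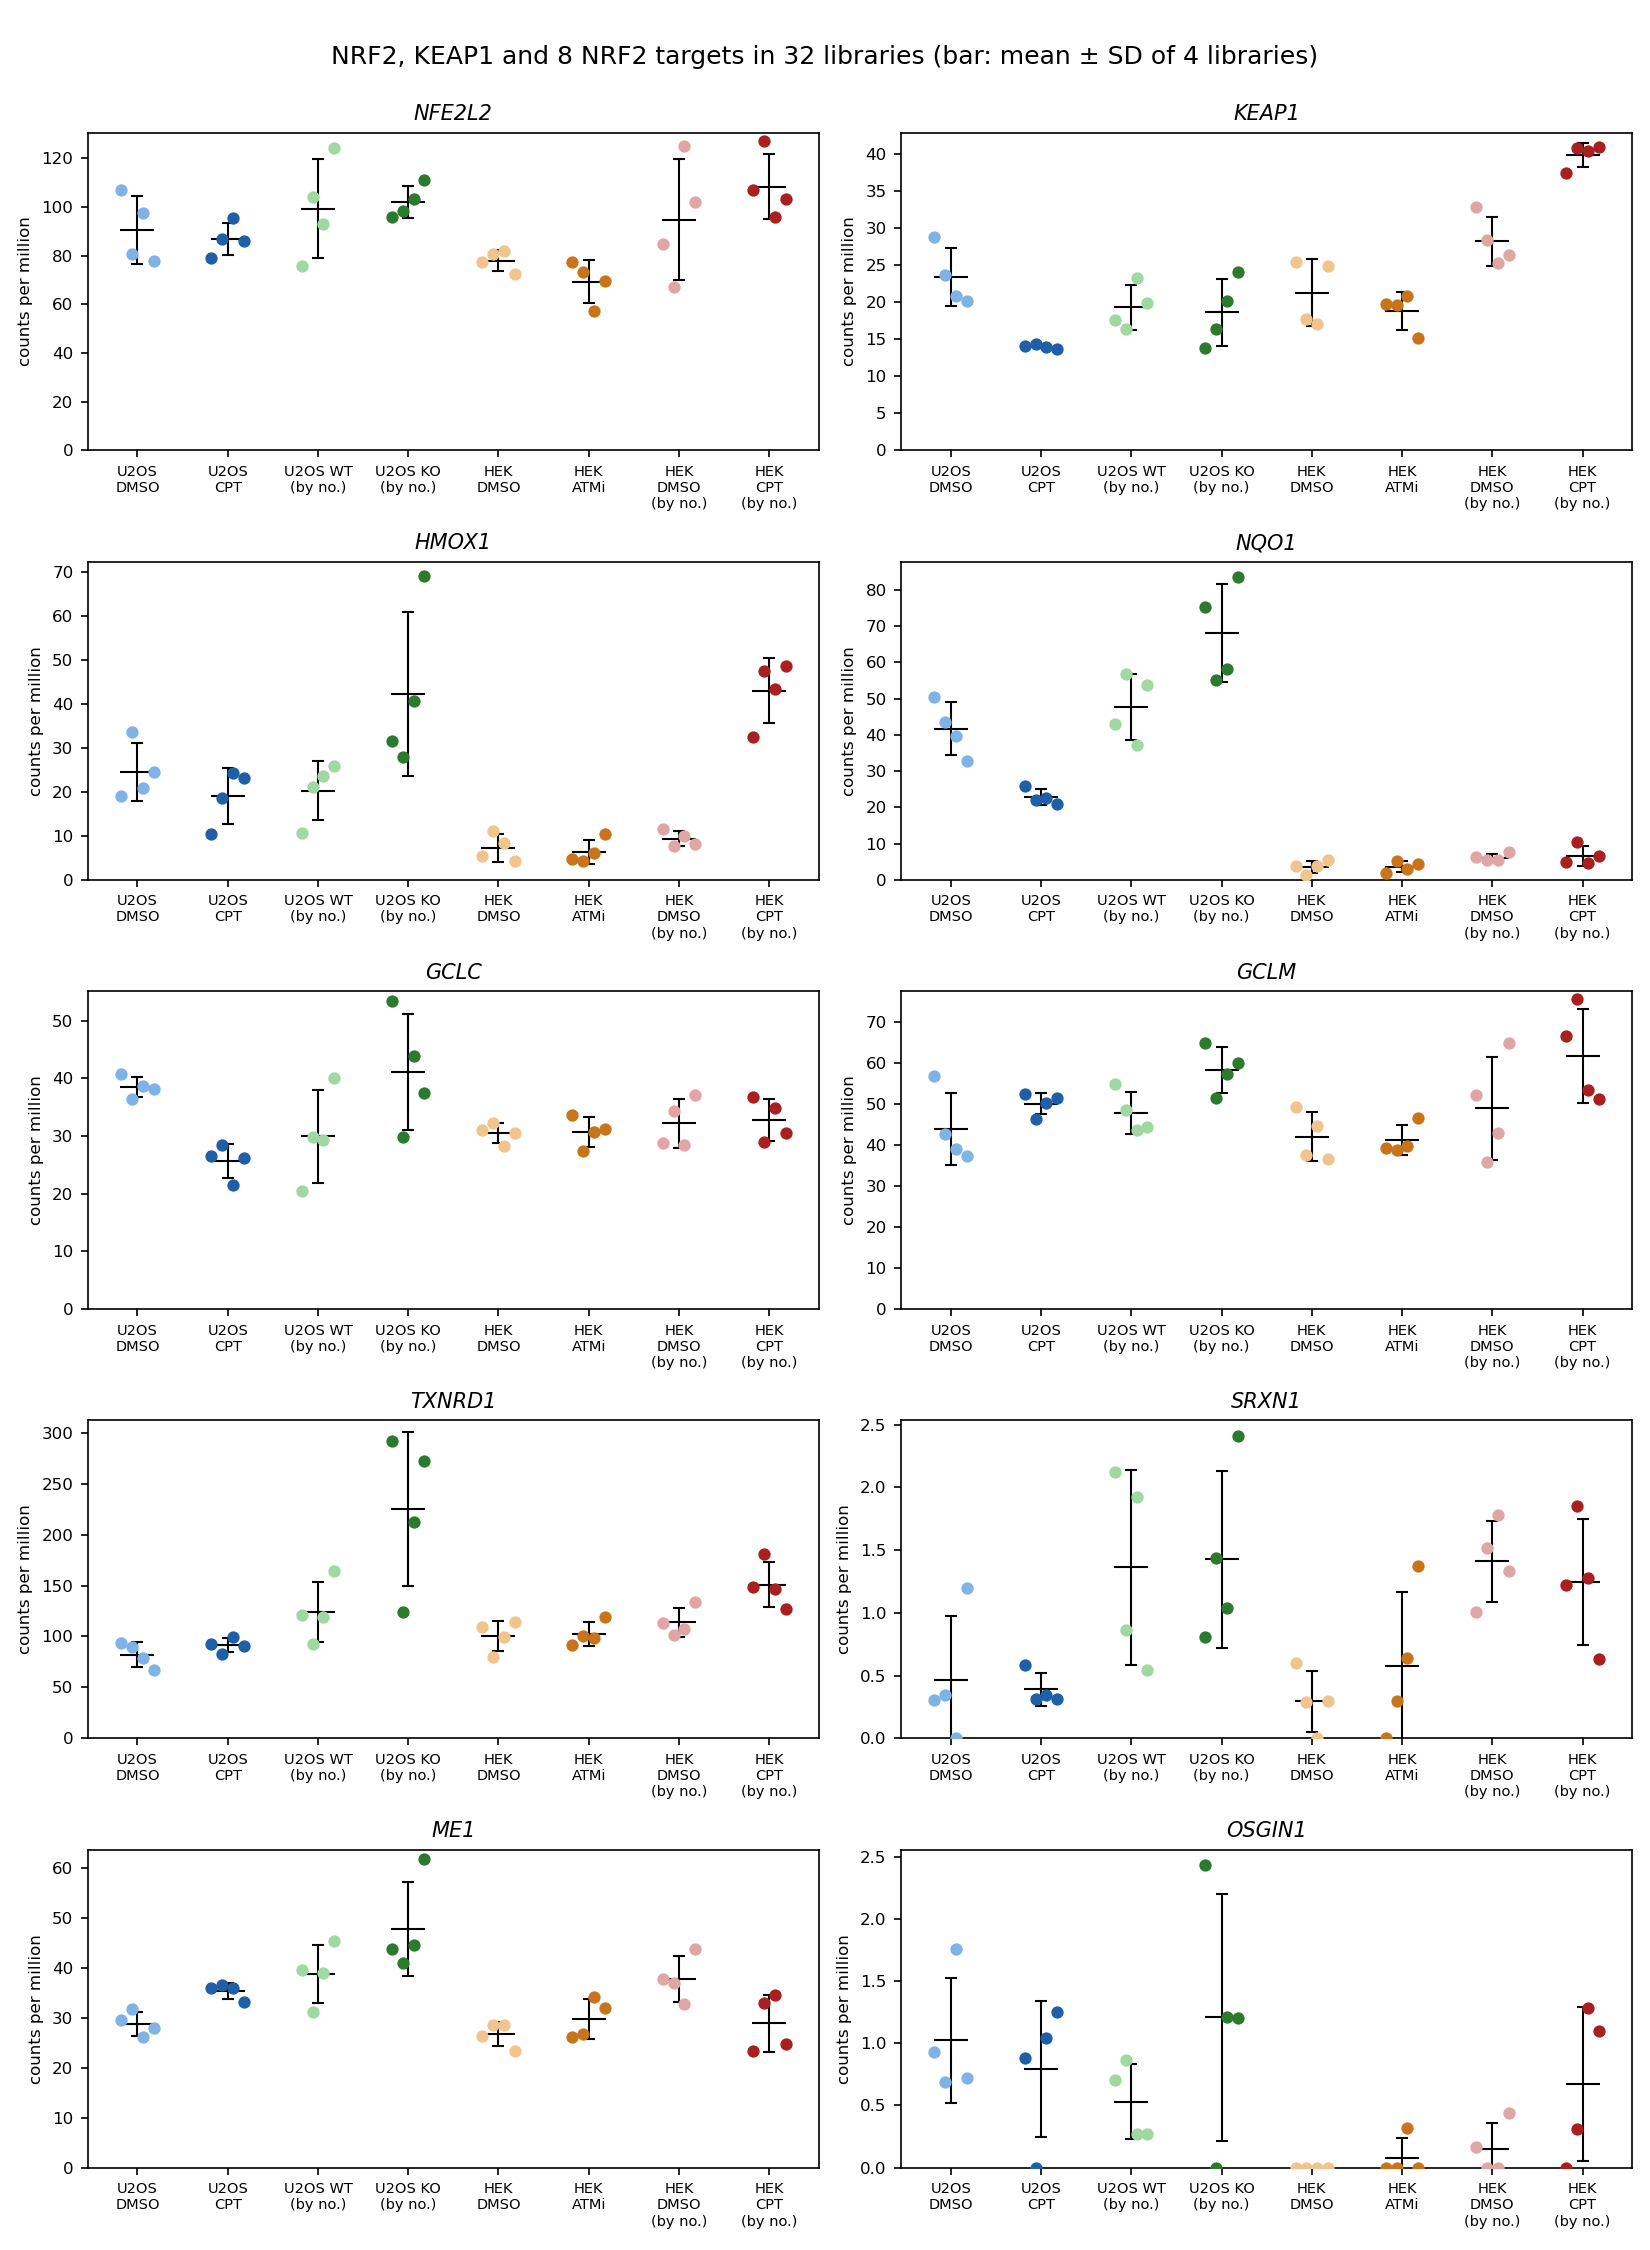
Level of the 10 genes in CPM (linear vertical axes from 0) in the 8 groups; each point is 1 library and the bars are the mean ± SD of 4 libraries, cut at 0. "By no." marks groups read by library number. HMOX1 was at 43.1 CPM on average in the libraries read as CPT in HEK293T and at 9.36 CPM in their controls, and NQO1 stayed at or below 10.5 CPM in all 16 HEK293T libraries.

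In U2OS cells, KEAP1, NQO1 and GCLC fell with CPT. NQO1 was at 25.9, 22, 22.5 and 20.9 CPM with CPT against 50.6, 43.7, 39.8 and 32.9 CPM with DMSO, and the groups did not overlap. It fell by 0.68 on the log2 scale (SE 0.14, adjusted p = 2.78e-04, quasi-likelihood test of edgeR, corrected over all genes after Benjamini and Hochberg), which is 1.61-fold. KEAP1 was tightly grouped at 14.1, 14.3, 13.9 and 13.7 CPM with CPT, below each of the DMSO libraries at 28.7, 23.7, 20.8 and 20.2 CPM. KEAP1 fell by 0.56 (SE 0.16, adjusted p = 0.00708). GCLC, the catalytic subunit of the glutathione enzyme, was at 26.5, 28.5, 21.5 and 26.2 CPM against 40.8, 36.5, 38.7 and 38.2 CPM, again without overlap. It fell by 0.41 (SE 0.14, adjusted p = 0.0205), a call that was lost without library 28 (-0.33, adjusted p = 0.0946).

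Its partner GCLM moved the other way in U2OS. GCLM was at 52.4, 46.5, 50.2 and 51.5 CPM with CPT against 56.8, 42.7, 39.0 and 37.3 CPM, so that library 30 of the controls lay above every treated library. GCLM was 0.37 higher (SE 0.13, adjusted p = 0.0235), TXNRD1 0.33 higher (SE 0.12, adjusted p = 0.0255) and ME1 0.47 higher (SE 0.13, adjusted p = 0.00607). ME1, at 33.1 to 36.6 CPM against 26.1 to 31.7 CPM, did not overlap between the groups, whereas TXNRD1, at 82.8 to 99.4 CPM against 66.6 to 93.2 CPM, did. These rises depend on how the libraries were scaled. With library totals in place of the trimmed mean of M values (TMM), the median of all genes shifted from 0.01 to -0.16 on the log2 scale, the share of calls that were rises went from 52.1% to 34.9%, and none of the 3 rises passed the test (GCLM 0.20, adjusted p = 0.312; TXNRD1 0.16, adjusted p = 0.367; ME1 0.30, adjusted p = 0.109). The falls of KEAP1, NQO1 and GCLC passed under both scalings. Leaving out a library also ended the call of GCLM (library 26, 31, 32 or 33, highest adjusted p = 0.0989) and of TXNRD1 (library 28, 32 or 33, highest adjusted p = 0.0896).

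HMOX1 in U2OS stood at 10.3, 18.6, 24.2 and 23.1 CPM with CPT and at 19.1, 33.7, 20.8 and 24.5 CPM with DMSO, overlapping groups that differed by -0.20 (SE 0.20, adjusted p = 0.497). NFE2L2, at 78.9 to 95.2 CPM against 77.6 to 107 CPM, differed by 0.11 (SE 0.12, adjusted p = 0.515). In all, 3 of the 10 members rose and 3 fell, with a median log2 fold change of -0.19 against 0.01 for all genes tested. Of all genes tested, 31.9% were called and 13.5% were called with an absolute log2 fold change over 1, a size that no member reached here.

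In HEK293T, by number, the leading response of the group was HMOX1. It stood at 32.5, 47.5, 43.5 and 48.7 CPM in libraries 10, 12, 14 and 16 against 11.5, 7.78, 10.0 and 8.20 CPM in libraries 11, 13, 15 and 17, and the lowest CPT library was above the highest control. HMOX1 rose by 2.17 on the log2 scale, 4.52-fold (SE 0.17, adjusted p = 1.68e-09). KEAP1 was at 37.4, 40.7, 40.3 and 40.9 CPM against 32.8, 28.3, 25.3 and 26.4 CPM and rose by 0.47 without overlap (SE 0.14, adjusted p = 0.00981). TXNRD1 was at 149, 181, 147 and 127 CPM against 113, 101, 107 and 134 CPM, where control library 17 lay above CPT library 16. TXNRD1 rose by 0.38 (SE 0.12, adjusted p = 0.0177), but not without library 12 (0.29, adjusted p = 0.087) or library 15 (0.35, adjusted p = 0.0566).

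ME1 was the member that fell in this comparison, by 0.42 (SE 0.15, adjusted p = 0.0328). Its libraries overlapped, at 23.3, 33, 34.5 and 24.7 CPM against 37.7, 36.9, 32.7 and 43.7 CPM, and the call was lost without library 10, 11, 16 or 17 (highest adjusted p = 0.115) and with DESeq2 (-0.38, adjusted p = 0.08). The ME1 call was also lost with RLE scaling (adjusted p = 0.056), the filterByExpr filter (adjusted p = 0.0658) and library totals in place of TMM (-0.40, adjusted p = 0.0521). GCLM, at 51.4 to 75.6 CPM against 35.9 to 64.9 CPM, was 0.31 higher (SE 0.16, adjusted p = 0.127) and passed the test without control library 17 (0.46, adjusted p = 0.0253). NFE2L2 differed by 0.18, NQO1 by 0.09 and GCLC by -0.00, all with an adjusted p of 0.361 or more, and NQO1 was low in every library, at 4.48 to 10.5 CPM. Thus 3 members rose and 1 fell, where 34.9% of all genes tested were called. With an absolute log2 fold change over 1 as well, 14% of all genes and 1 member, HMOX1, were called. The share of reads that fell on no annotated gene moved with the groups, at 15.8 to 18.5% in the libraries read as CPT and 9.39 to 11% in their controls, and its part in these results was not tested. Grouped by their deposited labels instead, the controls held library 1, which carries U2OS markers, in place of library 17, and 1 member, HMOX1, passed the test.

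**Figure D2:**
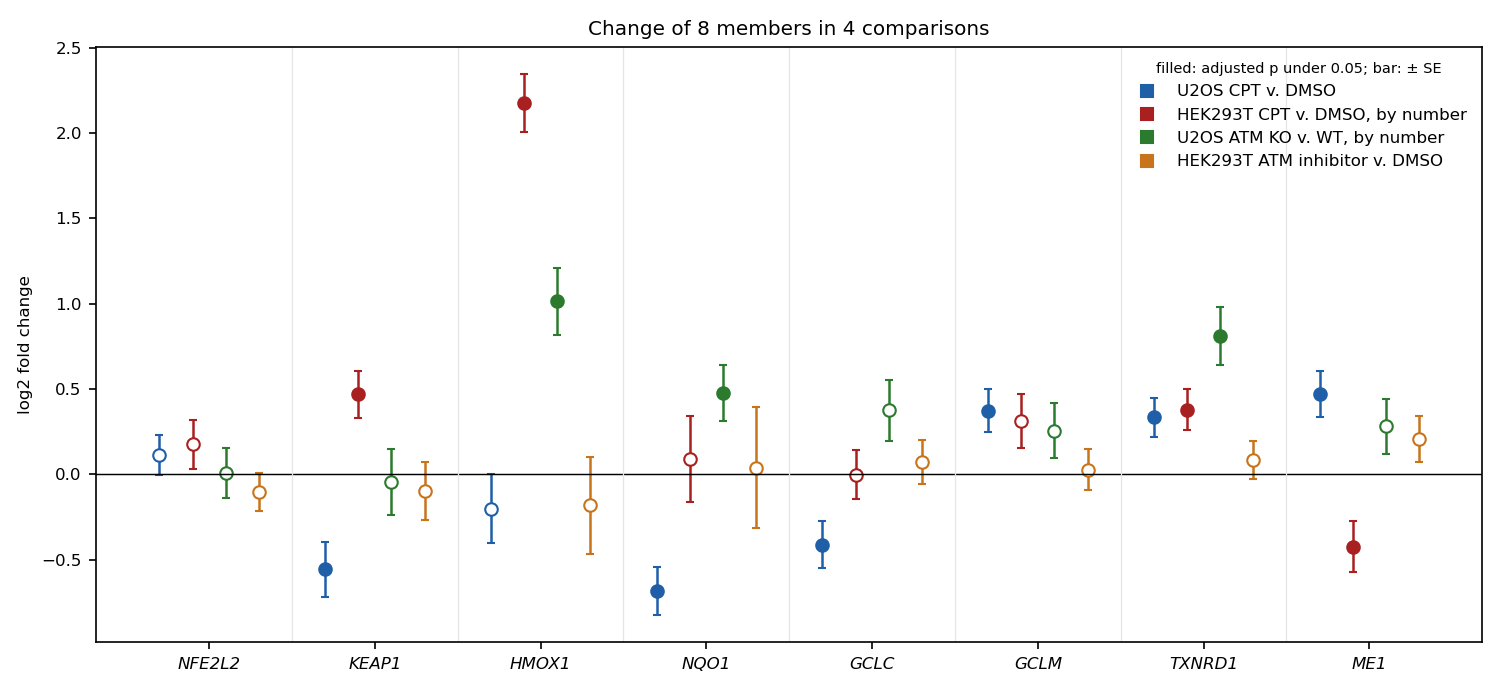
Log2 fold change ± SE (vertical axis) of the 8 members above the counting floor in 4 comparisons of 4 against 4 libraries; filled points have an adjusted p under 0.05. HMOX1 rises by 2.17 in HEK293T with CPT and lies at -0.20 in U2OS, and KEAP1 and ME1 take opposite signs in the 2 lines.

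The difference between the lines in the response to CPT was tested as an interaction over 16 libraries. The response in U2OS minus that in HEK293T was -2.38 for HMOX1 on the log2 scale (SE 0.28, adjusted p = 9.82e-09) and -1.02 for KEAP1 (SE 0.21, adjusted p = 2.99e-04), whereas it was 0.90 for ME1 (SE 0.20, adjusted p = 7.54e-04). KEAP1 fell in U2OS and rose in HEK293T, and ME1 did the reverse, with the limits given for ME1 in each line. For NQO1 it was -0.78 (SE 0.28, adjusted p = 0.0414), a call that was lost when any of 11 of the 16 libraries was left out, with adjusted p up to 0.198 (library 12). The NQO1 call was also lost with no filter (-0.75, adjusted p = 0.0565). NFE2L2, GCLC, GCLM and TXNRD1 gave differences of -0.06, -0.41, 0.07 and -0.04, with an adjusted p of 0.165 or more. The 4 members called compare with 20.3% of all genes tested, and the 2 members called with an absolute difference over 1, HMOX1 and KEAP1, with 11.9%. Scaled by library totals, the share of calls with a positive value went from 48.5% to 30.7%, the 4 members kept their direction and their call, and GCLC gained one (-0.61, adjusted p = 0.0273). The doses and the sets of libraries differed between the lines, and neither can be told apart from the line.

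In U2OS libraries read as ATM KO, HMOX1 and TXNRD1 were higher. HMOX1 stood at 31.6, 27.9, 40.6 and 69.1 CPM in libraries 2, 4, 6 and 8 against 10.6, 21.2, 23.5 and 25.9 CPM in libraries 1, 3, 5 and 7, with no overlap and with library 8 highest. It rose by 1.01, 2.02-fold (SE 0.20, adjusted p = 1.59e-04). TXNRD1 was at 292, 124, 212 and 272 CPM against 121, 92.2, 119 and 164 CPM, and library 4 lay below control library 7. TXNRD1 rose by 0.81, 1.75-fold (SE 0.17, adjusted p = 4.17e-04). NQO1, at 75.4, 55.3, 58.3 and 83.7 CPM against 43.0, 56.7, 37.2 and 53.7 CPM, rose by 0.48 (SE 0.16, adjusted p = 0.0401), but the call did not hold without library 1, 2, 5, 7 or 8 (highest adjusted p = 0.242) or with DESeq2 (adjusted p = 0.0764).

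The glutathione subunits and ME1 had positive values that missed the threshold. GCLC was at 29.8 to 53.5 CPM against 20.5 to 40.1 CPM (0.37, SE 0.18, adjusted p = 0.172), GCLM at 51.5 to 64.9 CPM against 43.8 to 55.0 CPM (0.26, SE 0.16, adjusted p = 0.324) and ME1 at 40.9 to 61.7 CPM against 31.2 to 45.3 CPM (0.28, SE 0.16, adjusted p = 0.286). NFE2L2 and KEAP1 differed by 0.01 and -0.04 with SEs of 0.15 and 0.19. The count was 3 rises and 0 falls among 10 members, where 13% of all genes tested were called, 6.43% as rises. HMOX1 alone among the members was called with an absolute log2 fold change over 1, as were 5.24% of all genes. It was under that size without library 1 (0.88) or library 8 (0.69) and just under it with DESeq2 (0.99), RLE scaling or no filter, still past the test. These libraries held the widest range of depth, 1232674 to 5818796 counts, and the reads on no annotated gene spanned 22.8 to 36.1% and 22.9 to 33.5% in the 2 groups. Grouped by the deposited labels, 0 members passed, 39 of the genes tested were called, and the controls then held library 17, which carries HEK293T markers, in place of library 1.

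The ATM inhibitor in HEK293T left no member past the threshold. Of the 10 members, 9 could be tested, their log2 fold changes lay between -0.18 (HMOX1) and 0.91 (SRXN1, at 0 to 4 counts in a library), and 0 were called by edgeR, by the likelihood ratio test or by DESeq2. No member reached an unadjusted p under 0.05. HMOX1 was at 4.61, 4.22, 6.07 and 10.3 CPM with the inhibitor and at 5.38, 11.1, 8.27 and 4.15 CPM with DMSO, TXNRD1 at 92.0 to 119 CPM against 80.3 to 114 CPM, and NQO1 at 1.90 to 5.12 CPM against 1.43 to 5.33 CPM, all overlapping. Without SRXN1, the SEs ran from 0.11 (NFE2L2) to 0.36 (NQO1). Across all genes 0.00543% were called, 1 gene of 18413, with 1019 genes at an unadjusted p under 0.05, and 0% were called with an absolute log2 fold change over 1.

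Without drug, NQO1 and HMOX1 were higher in U2OS than in HEK293T. NQO1 stood at 50.6, 43.7, 39.8 and 32.9 CPM in the U2OS DMSO libraries and at 3.89, 1.43, 3.76 and 5.33 CPM in the HEK293T DMSO libraries, which do not overlap. It was 3.74 higher on the log2 scale, 13.4-fold (SE 0.21, adjusted p = 6.9e-17). The control libraries read by number gave 43.0, 56.7, 37.2 and 53.7 CPM against 6.23, 5.42, 5.33 and 7.54 CPM, a difference of 3.31 (SE 0.19, adjusted p = 1.93e-17). HMOX1 was 1.97 higher in U2OS in the former comparison (SE 0.22, adjusted p = 2.34e-09) and 1.52 higher in the latter (SE 0.21, adjusted p = 7.04e-08). By number, the U2OS cells were untreated and the HEK293T cells received DMSO. The reads on no annotated gene did not overlap between the lines. They were 33.6 to 38.7% in U2OS against 23.6 to 30.4% in HEK293T with DMSO, and 22.9 to 33.5% against 9.39 to 11% by number. Depth by number did not overlap either, at 1416967 to 3667632 counts in U2OS and 4500361 to 5937539 in HEK293T. The part of these differences in the results was not tested. The 2 comparisons share no library with each other, but each uses controls of the treatment comparisons above.

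The other members differed less between the lines. NFE2L2 was 0.44 higher in U2OS in both comparisons (adjusted p = 0.00148 and 0.00866), and ME1 was 0.33 and 0.39 higher (adjusted p = 0.0403 and 0.0223). GCLC was higher in the DMSO libraries, by 0.56 (adjusted p = 3.42e-04), and 0.27 higher by number (adjusted p = 0.139), while TXNRD1 differed by -0.08 (adjusted p = 0.611) and by 0.48 (adjusted p = 0.00282). KEAP1 and GCLM were not called in either comparison, and their calls turned on settings. In the DMSO libraries, KEAP1 passed the test with RLE scaling (0.38, adjusted p = 0.0438), with the filterByExpr filter, or without library 22, 25 or 33, and GCLM with that filter (0.30, adjusted p = 0.0487) or without library 22 or 33. By number, GCLM passed with the filter (adjusted p = 0.0441) or without library 17 (0.46, adjusted p = 0.0113). With library totals in place of TMM the median of all genes shifted to -0.21 and -0.35, NFE2L2 and ME1 were called in neither comparison, KEAP1 gained a call by number (-0.52, adjusted p = 0.0113), and TXNRD1 turned to a call of -0.30 in the former (adjusted p = 0.0482) and to 0.13 (adjusted p = 0.472) in the latter, so that only NQO1 and HMOX1 kept their calls in both. The share of called genes that were higher in U2OS moved with that scaling from 51.5% to 42.0% and from 51.7% to 39.6%. With TMM, 6 members were called in the DMSO libraries and 5 by number, all of them higher in U2OS, beside 62.1% and 64.4% of all genes. Without control library 7, the count by number was 2, as NFE2L2, TXNRD1 and ME1 missed the threshold. The call of ME1 was also lost without library 22, 24, 25, 31 or 33 (highest adjusted p = 0.113) and, by number, without library 1, 5 or 15, and that of NFE2L2 by number without library 3 (adjusted p = 0.0586). Called with an absolute log2 fold difference over 1 were 3 members (NQO1, HMOX1 and OSGIN1) beside 39.9% of all genes, and 2 members by number beside 44.6%.

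**Figure D3:**
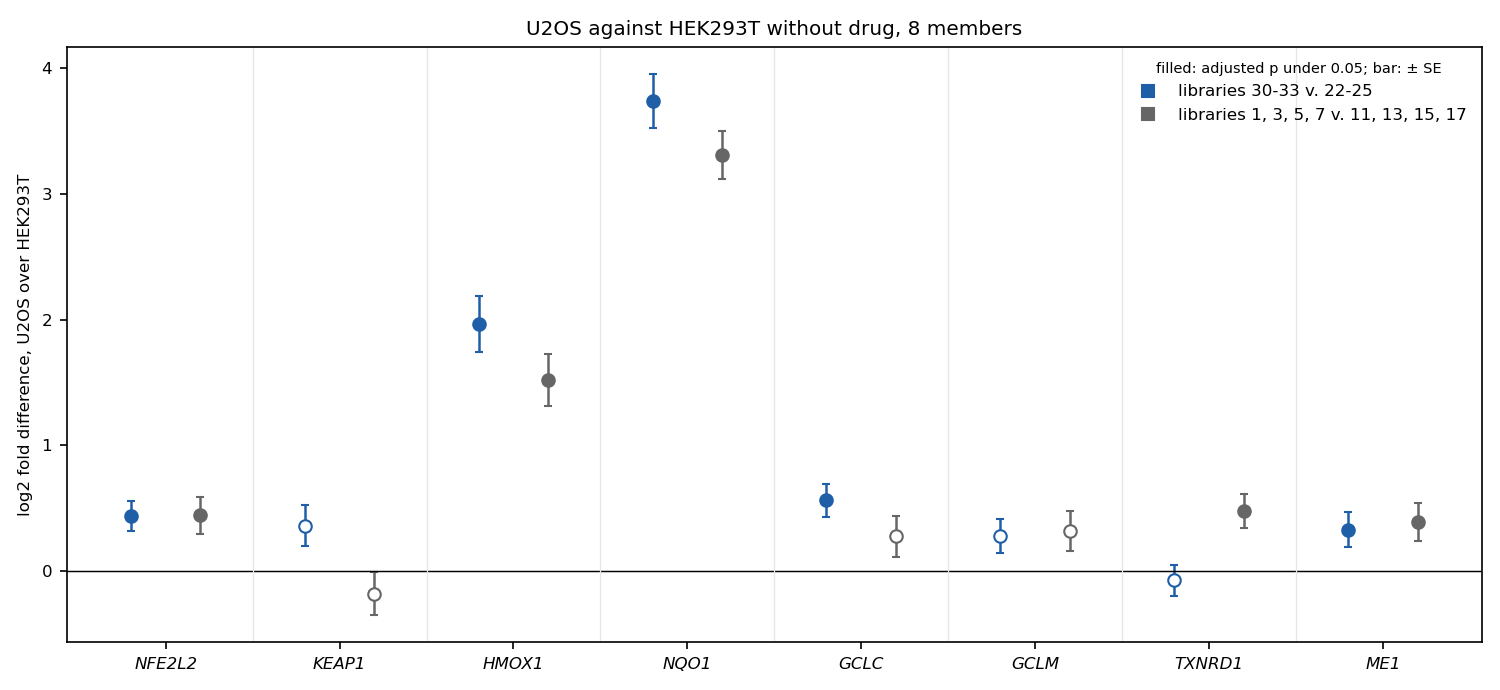
Log2 fold difference ± SE of U2OS over HEK293T without drug (vertical axis) for 8 members in 2 comparisons that share no library; filled points have an adjusted p under 0.05. NQO1, at 3.74 and 3.31, and HMOX1, at 1.97 and 1.52, stand above the others.

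Across all 8 groups, the mean level of HMOX1 ran from 6.29 CPM with the ATM inhibitor, 7.23 CPM in its DMSO controls and 9.36 CPM in the HEK293T controls by number, through 19.1 CPM (U2OS CPT), 20.3 CPM (U2OS WT) and 24.5 CPM (U2OS DMSO), to 42.3 CPM (U2OS ATM KO) and 43.1 CPM (HEK293T CPT). The SDs of the neighbouring groups within each of these 3 sets overlapped. The mean of HMOX1 in the HEK293T CPT libraries was thus above those of the U2OS DMSO and WT libraries, while their NQO1, at 6.62 ± 2.74 CPM (SD, n = 4), stayed with the other HEK293T groups, whose means were 3.59 to 6.13 CPM. The U2OS means of NQO1 ran from 22.8 ± 2.15 CPM with CPT through 41.8 ± 7.40 CPM (DMSO) and 47.7 ± 9.09 CPM (WT) to 68.2 ± 13.6 CPM (ATM KO). KEAP1 was lowest at 14 ± 0.248 CPM in U2OS with CPT and highest at 39.8 ± 1.66 CPM in HEK293T with CPT. NFE2L2 means stayed between 69.3 ± 8.70 CPM (ATM inhibitor) and 108 ± 13.3 CPM (HEK293T CPT). These orders are a description, since the sets of libraries were not all tested against each other.

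SRXN1 and OSGIN1 were too rare to follow. SRXN1, whose product repairs overoxidised peroxiredoxins, had 0 to 14 counts in a library and OSGIN1 had 0 to 7. A same-strand gene model, AL121758.1, shares exon bases with SRXN1 in GENCODE 29, so that reads on both could have been set aside as ambiguous, and its part was not tested. OSGIN1 had 0, 1, 4 and 7 counts in libraries 10, 12, 14 and 16 against 1, 0, 0 and 2 in libraries 11, 13, 15 and 17 (adjusted p = 0.0782), 3, 2, 6 and 3 counts in the U2OS DMSO libraries, and 0 in each of the 4 HEK293T DMSO libraries. OSGIN1 had 3, 0, 7 and 7 counts in libraries 2, 4, 6 and 8 against 1, 2, 1 and 1 in libraries 1, 3, 5 and 7 (adjusted p = 0.353), and SRXN1 was called in none of the 7 comparisons (lowest adjusted p = 0.376). The contrast of OSGIN1 between the lines with DMSO passed the test (adjusted p = 4.52e-04), but the counts of both groups are near or under the floor of 3 counts per library, and no fold is given. AC009119.2 shares exon bases with OSGIN1 on the same strand, and NQO1, GCLC and NFE2L2 overlap antisense gene models with 41 counts or fewer over all libraries, and NFE2L2 also shares exon bases with AGPS on the opposite strand and AC019080.1 on its own. The strand setting of the counting is not given in the sources used here.

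Among 45 other genes of the pathway, calls with CPT went in both directions. In U2OS, 8 of 41 tested rose and 6 fell (median -0.02 against 0.01 for all genes), beside 16.6% and 15.3% of all genes. SLC7A11, the cystine importer that feeds glutathione synthesis, was at 37.7, 34.1, 32.2 and 27.8 CPM against 152, 151, 146 and 104 CPM and fell by 1.89 (SE 0.13, adjusted p = 8.54e-13). PIR, an iron-binding nuclear protein, was at 3.12 to 5.59 CPM against 11.3 to 15.7 CPM and fell by 1.43 (adjusted p = 9.73e-06), and RBX1, the RING subunit of the KEAP1 ligase, fell by 0.48 (adjusted p = 0.00217). The small MAF genes MAFF and MAFK, partners of NRF2 on DNA, rose by 1.26 (adjusted p = 6.08e-06) and 1.10 (adjusted p = 5.35e-08). MAFK was at 61.8, 51.5, 57.5 and 65.8 CPM against 30.6, 37.5, 28.4 and 28.4 CPM. AKR1B10, an aldo-keto reductase, had 23, 11, 15 and 10 counts against 2, 2, 1 and 0 and rose by 3.69 (adjusted p = 1.32e-06), from a control level at or under the floor.

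In HEK293T by number, 10 of 43 rose and 9 fell (median -0.04 against 0.04 for all genes), beside 17.6% and 17.3% of all genes. SLC7A11 again fell, by 3.47 (SE 0.21, adjusted p = 3.76e-11), from 142, 280, 297 and 181 CPM to 21.7, 22.2, 24.6 and 15.6 CPM. TKT, transketolase of the pentose phosphate pathway, fell 2.3-fold (adjusted p = 1.83e-07) and ABCC1, an exporter of glutathione conjugates, 1.8-fold (adjusted p = 0.0401). MAFF was at 7.04, 10.2, 7.04 and 7.39 CPM against 2.53, 2.37, 1.56 and 2.22 CPM and rose by 1.80 (adjusted p = 1.29e-05). The other leading rises, AKR1C2 (2 counts in each CPT library and 0 in each control) and AKR1B10 (1, 2, 4 and 2 counts against 0, 0, 1 and 0), rest on counts at the floor. Among NRF2 partners and regulators, 5 of 9 rose (BACH1, CUL3, MAFG, SQSTM1 and MAFF) and RBX1 fell, with a median of 0.48 against 0.04 for all genes. The other lists did not all lean this way. Of 5 NADPH and pentose targets, 0 rose and 3 fell (median -0.39), and of 9 glutathione targets, 1 rose and 3 fell (median -0.15). None of 6 heme and iron targets was called (median -0.24). Of 3 thioredoxin targets, 1 rose and 1 fell (median -0.29), and of 11 detoxification targets, 3 rose and 1 fell (median 0.69). The signed log2 change in U2OS minus that in HEK293T passed the interaction test with a positive value for 8 and with a negative value for 8 of 44 genes, beside 20.3% of all genes called. The highest values were those of SLC7A11 (1.59, adjusted p = 2.92e-06), which fell less in U2OS, SLC48A1 and BLVRB, and the lowest those of AKR1C2, AKR1C3 and EPHX1, with AKR1C2 and AKR1C3 near the floor of counts.

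**Figure D4:**
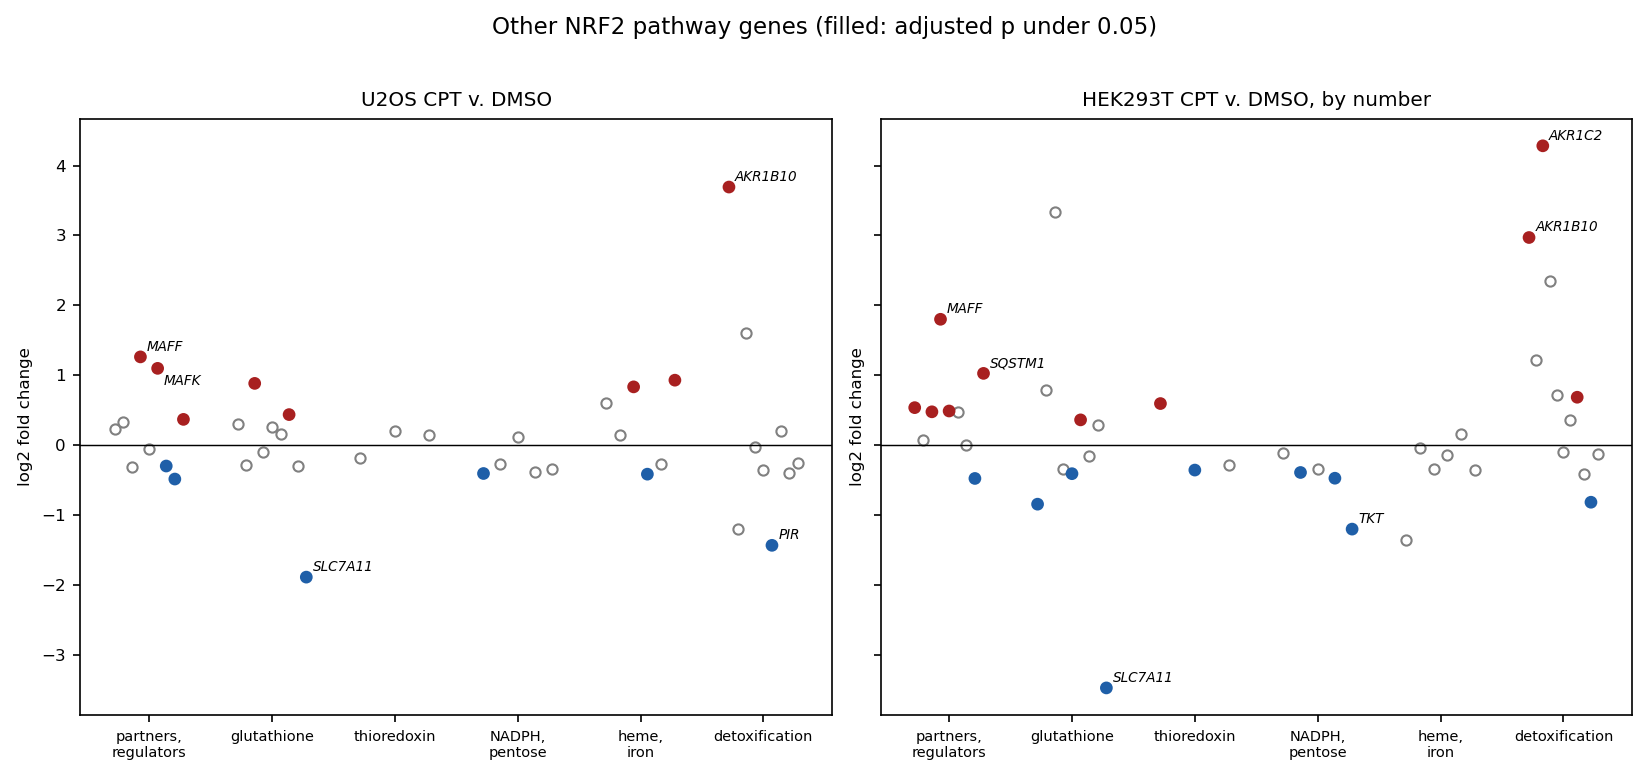
Log2 fold change (vertical axis) of the other NRF2 pathway genes tested, each point 1 gene in its functional group, with CPT in U2OS (left) and HEK293T by number (right); filled points have an adjusted p under 0.05 and names are given where the change is over 1. SLC7A11 falls by 1.89 and 3.47, and MAFF rises by 1.26 and 1.80.

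In the libraries read as ATM KO in U2OS, 5 of 42 other pathway genes rose and 4 fell (median 0.10 against 0.04 for all genes), beside 6.43% and 6.56% of all genes. The 3 leading rises came from the detoxification list, in which 3 of 10 tested rose. AKR1C3, an aldo-keto reductase, was at 9.73, 4.81, 5.03 and 8.25 CPM against 0.706, 0.865, 1.10 and 3.54 CPM and rose by 1.86 (SE 0.40, adjusted p = 4.99e-04). Its levels in control libraries 1 and 3 were under the floor of 3 counts, which is 2.117 and 1.298 CPM there. CBR1, carbonyl reductase 1, was at 26.8, 16.8, 25.2 and 35.9 CPM against 7.06, 7.36, 11 and 13.6 CPM and rose by 1.35 (adjusted p = 3.78e-06). TRIM16L rose by 1.73 (adjusted p = 1.57e-05), and RBX1, UGDH and IDH1 fell by 0.78, 0.64 and 0.50 (largest adjusted p = 0.0295). With the ATM inhibitor in HEK293T, 0 of 39 were called, and 4 had an unadjusted p under 0.05. Of all 18413 genes tested there, 1 was called and 1019 had an unadjusted p under 0.05.

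Between the lines without drug, 20 of 42 other pathway genes were higher and 12 lower in U2OS in the DMSO libraries, and 20 of 41 and 14 by number, beside 32% and 30.1% of all genes in the former comparison and 33.3% and 31.1% in the latter. ABCC3, an exporter of conjugates, was at 8.34 to 13.5 CPM in the U2OS DMSO libraries and had 0 counts in each HEK293T DMSO library, and PTGR1, a reductase of prostaglandins and leukotrienes, was at 24.0 to 25.9 CPM against 0.296 to 0.752 CPM. By number, ABCC3 was at 10.6 to 13.4 CPM with 0 counts in each HEK293T control, PTGR1 was at 16.9 to 22.6 CPM with at most 1 count, and MGST1, a microsomal glutathione transferase, was at 35.0 to 67.8 CPM against 2.66 to 3.56 CPM. AKR1C3 had 4 to 12 counts in a U2OS DMSO library and at most 1 in a HEK293T DMSO library. The carbonyl reductases ran the other way: CBR1 was at 7.91 to 9.26 CPM in U2OS and 40.6 to 58.7 CPM in HEK293T with DMSO, a difference of -2.24 (adjusted p = 5.35e-14), and CBR3 had 0 or 1 counts in each U2OS DMSO library and 10 to 14 in HEK293T. GSTM3, a glutathione transferase, differed by -3.48 with DMSO and by -3.15 by number, U2OS over HEK293T (largest adjusted p = 7.98e-16), and ABCB6 was lower by number on 0 or 1 counts in a U2OS library.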

How the data were processed

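RNA of 32 cell line samples was made into QuantSeq 3′ libraries with molecular identifiers. The authors processed the reads with the Lexogen QuantSeq forward pipeline on the BlueBee platform and deposited raw counts per Ensembl gene and library. The genome build, aligner settings and strand setting are not given in the sources used here. Summary rows (5, such as reads on no gene, 10.9 to 40.6% of each library) and 92 spike-in rows were left out. Symbols were matched for 56104 of 60107 identifiers.

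Each comparison of 4 against 4 libraries was fitted alone with edgeR 4.0.16 in R 4.3.3, after dropping genes that did not exceed 1 count in 2 or more libraries, with TMM scaling and the quasi-likelihood test. Benjamini-Hochberg adjustment covered all genes tested, and a call is an adjusted p under 0.05. SEs were derived from the fold change and the test statistic. The interaction used 16 libraries. The likelihood ratio test, which the authors used, DESeq2 1.42.0, RLE scaling, other filters, omission of each library and grouping by label were alternatives, and scaling by library totals was added after seeing the data. The fits were tested on simulated counts. The study describes the samples as repeats without naming donors or dates, so p-values measure the spread between these samples. CPM are counts per 1000000 counts on genes, and ranges or floors from counts cover counting error only.

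All 10 members were to be named in every comparison, but SRXN1 and OSGIN1, near the counting floor, are given once, by counts. From 45 other pathway genes, the 3 largest rises and falls among those called were named per comparison, and CDKN1A, MDM2, ATM and line markers were checks. BACH1, CUL3, MAFG, SQSTM1, MAFK by value and the CPM shown were chosen after their values were seen. The members, lists and comparisons were chosen with earlier results of these data known. Promoters are from RefSeq, exons from GENCODE 29.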

Additional observations from a re-analysis of the deposited data

Results flagged for a closer look

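The response of 4 members to CPT differed between the lines by the interaction test: HMOX1 by -2.38, KEAP1 by -1.02, NQO1 by -0.78 and ME1 by 0.90 on the log2 scale, U2OS minus HEK293T. Of all 22363 genes tested, 20.3% were called in this interaction. The call of NQO1 was lost in 12 of 22 alternatives. The HEK293T part rests on libraries read by number, and the doses of the lines differed.

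A library passed the cutoff for lying apart from the other 3 of its group in 3 of 79 sets of 4 values. For continuous, normally spread values chance gives about 1 in 20. That rate does not hold for SRXN1 and OSGIN1, whose sets hold a few whole counts. GCLM was at 46.6 CPM in library 21 (ATM inhibitor) and at 38.9 to 39.9 CPM in the other three, a gap of 0.87 of the range. SRXN1 was highest in library 26 (U2OS CPT), with 2 counts against 1 in each of the others, a gap of 0.871 of the range. OSGIN1 had 1 count in library 20 (ATM inhibitor) and 0 in the others, a gap of 1.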

How the results depend on the processing

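Over all members, comparisons and alternatives, 907 values kept their direction and side of the threshold, 58 that were called in neither fit changed sign, 65 lost a call, 17 gained one and none of the called values changed sign. Scaled by library totals, 3 members were called in U2OS CPT (all falls) in place of 6. All genes shifted too, with 2283 rises and 4253 falls called in place of 3176 and 2915. Between the lines by number, 3 members were called in place of 5. There, 5124 genes were called higher and 7801 lower in U2OS, in place of 6471 and 6039. Grouped by label, 1 member and 778 genes were called in place of 4 and 6785 for HEK293T CPT by number, and 0 members and 39 genes in place of 3 and 2415 for U2OS ATM KO by number. For the ATM inhibitor, the genes called went from 1 to 5 with the likelihood ratio test and to 16 with no filter, and from 0 to 97 when a library was left out (97 without library 21), while 0 members were called throughout. With a library left out, the members called ranged from 2 to 6 between the lines by number, from 4 to 6 for U2OS CPT, from 3 to 5 for HEK293T CPT and from 2 to 3 for U2OS ATM KO. OSGIN1 gained a call in HEK293T CPT with the likelihood ratio test (adjusted p = 0.038). The cause of these shifts was not tested beyond what each alternative changes. Depth limits SRXN1 and OSGIN1 throughout. No paired analysis was made. The labels give each library its own number and name no pairs, while the study describes 4 independent repeats of each experiment. Whether a treated and a control library came from the same repeat was not tested.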
